A study of Mus musculus with 10 samples.

Results

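The Sidekick genes Sdk1 and Sdk2 and the Dscam genes Dscam and Dscaml1 were followed through RNA-seq libraries of mouse retinal ganglion cells. These 4 genes, chosen by name with earlier results of these data known, stood among 23258 gene symbols in the deposited table, each on 1 line. All 4 passed the filter of at least 1 TPM in at least 5 libraries, and none was listed at 0 in any library. TPM is each transcript's share of a library, corrected for transcript length and summing to 1000000.

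The cells came from the retina of C57BL/6 mice at postnatal day 6 and were ganglion cells, which send the output of the retina to the brain. Every library, of either genotype, came from cells with a green fluorescent protein reporter under Hb9 (Mnx1) control, sorted by fluorescence, with RNA from about 1000 cells. The 5 wild-type libraries (WT Hb9) carried the reporter alone, and the 5 knockout libraries (Satb1-/- Hb9) carried it in mice lacking Satb1, which encodes a chromatin organizer. Replicates of a genotype came from separate litters. The reporter line labels ON-OFF direction-selective ganglion cells, and the cDNA was amplified before library construction. The question was which transcripts depend on Satb1 in these cells.

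Sidekick and Dscam proteins are large adhesion molecules of the immunoglobulin superfamily, with repeated immunoglobulin and fibronectin type III domains outside the cell and a tail inside it that binds PDZ scaffold proteins. Each binds its own kind across cells, and in the chick retina each marks neurons whose processes meet in particular sublaminae of the inner plexiform layer, where ganglion cell dendrites receive their synapses. In the mouse retina, Sdk2 joins a glutamatergic amacrine cell to one of its ganglion cell targets, while Dscam and Dscaml1 keep the neurites of a cell type from clumping and space their cell bodies.

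The markers checked the sorted cell type. The 12 pan-ganglion markers summed to 14685 to 102379 TPM per library. The largest part was the neurofilament gene Nefl, at 6422 to 94381 TPM, highest in knockout 3. Pou4f1, another of them, was at 37.4 to 371 TPM, and was lowest in wild-type 5 and knockout 5 (37.4 and 39.6 TPM). Of the 4 starburst amacrine markers, Chat, Slc18a3 and Sox2 were listed at 0 in at least 5 libraries. The choline transporter gene Slc5a7 ranged from 0.0754 to 12.3 TPM, with its highest value in knockout 1. The 7 pan-amacrine markers summed to 82.4 to 358 TPM in wild-type libraries and 88.9 to 262 TPM in those of the knockout. Most of that was Pax6 (70.4 to 349 TPM), which ganglion cells also express, while Gad1 and Slc32a1 were listed at 0 in at least 5 libraries. Slc6a9, a glycine transporter, had at least 2.03 TPM in each wild-type library (highest 19.2 TPM) and was lower in every knockout library, with medians of 6.52 and 0.985 TPM (exact permutation p = 0.00794; limma adjusted p = 0.992). Slc6a9 had the smallest limma p of the 3 tested genes of that list, and 0.502% of all tested genes did not overlap between genotypes. Of the other 2, Pax6 was lower in knockout (a log2 change of -0.49, SE 0.57) and Gad2 was higher (0.51, SE 0.71). Mnx1 itself was low, at 0 to 8.04 TPM. Satb1 was at 38.6 to 414 TPM in the wild-type and 24.1 to 170 TPM in knockout libraries (a log2 change of -1.25 with SE 0.71; adjusted p = 0.992 by limma with Benjamini-Hochberg), so the targeted transcript was not shown to differ; the part of the gene that was removed is not given in the sources used here. On the first principal component, which held 32.9% of the variance, wild-type 5, knockout 4 and knockout 5 stood apart (scores of 88.0 to 149) from the other 7 libraries (-85.4 to -14.2). In those 3 libraries the cytosolic ribosomal protein genes held 11.5% to 13.0% of all TPM, and in the other 7 they held 3.76% to 7.92%. Level and ratio differences between genotypes are given with and without the 3 libraries, other results only in part.

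The genes are long. In GENCODE M21, on GRCm38 (mm10), Sdk1 (ENSMUSG00000039683.16) lies on chromosome 5 from 141241490 to 142215586 on the plus strand, and its longest coding transcript has 45 exons. Sdk2 (ENSMUSG00000041592.16) lies on chromosome 11 from 113776374 to 114067046 on the minus strand, also with 45 exons. Dscam (ENSMUSG00000050272.10) lies on chromosome 16 from 96590840 to 97170752 on the minus strand, and Dscaml1 (ENSMUSG00000032087.10) on chromosome 9 from 45426628 to 45753712 on the plus strand, each with 33 exons. A TPM value covers the whole gene, so isoforms are not distinguished here.

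The promoters of the Sidekick pair are shown because the ratio of Sdk1 to Sdk2 had, over all 10 libraries, the smallest exact p among the genotype comparisons of the 4 genes' levels, ratios and percentiles. Of the 4 genes, 3 had an entry in the RefSeq promoter table (GRCm38.p6). Each sequence is the 250 bases before the start in that table, 5′ to 3′ on the gene's own strand. The letters CCAAT and GGGCGG, on either strand, are in capitals, and the motifs do not overlap one another. These starts lie inside the GENCODE spans given above, so the windows reach into those spans. Distances below are counted from the RefSeq starts.
Sdk1, chr5:141241284-141241533, plus strand: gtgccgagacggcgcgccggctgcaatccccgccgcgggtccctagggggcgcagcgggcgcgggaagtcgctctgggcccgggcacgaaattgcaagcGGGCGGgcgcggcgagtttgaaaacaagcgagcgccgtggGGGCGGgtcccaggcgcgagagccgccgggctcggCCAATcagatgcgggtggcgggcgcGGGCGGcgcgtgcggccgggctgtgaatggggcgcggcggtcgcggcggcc
Sdk2, chr11:114067030-114067279, minus strand: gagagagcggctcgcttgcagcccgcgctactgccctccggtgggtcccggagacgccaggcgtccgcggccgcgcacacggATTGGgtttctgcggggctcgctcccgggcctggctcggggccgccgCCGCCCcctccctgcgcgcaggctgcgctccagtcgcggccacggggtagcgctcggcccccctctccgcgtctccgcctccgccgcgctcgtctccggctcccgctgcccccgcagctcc
Both stretches are rich in G and C, at 78.0% for Sdk1 and 78.8% for Sdk2 against a median of 52.4% over 32851 promoter entries, and they held 44 and 38 CG dinucleotides against a median of 6. Sdk1 had CCAAT once, 76 to 72 bases before the start, and GGGCGG at 3 places. Sdk2 had each motif once, both on the other strand, with CCAAT 168 to 164 bases before the start. CCAAT occurred in 33.8% and GGGCGG in 32.7% of all entries of this length. Neither motif occurred in the same window of Dscam, whose content of G and C was 68.0%. TATAAA and ATATAT, present in 12.4% and 5.02% of entries, were found in none of the 3 windows. These matches describe the sequence and no binding was measured.

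Dscam was the most abundant of the 4 transcripts. Its level was 145, 67.1, 32.9, 54.3 and 24.1 TPM in wild-type libraries 1 to 5. In knockout libraries 1 to 5 it was 106, 61.8, 84.6, 42.0 and 19.8 TPM. The genotypes overlapped over most of their range, and in both the lowest value belonged to a library apart on the first component. The means were 64.6 ± 47.8 TPM in the wild-type and 62.8 ± 34.0 TPM in the knockout (SD, n = 5 each). The log2(TPM + 1) difference, knockout minus wild-type here and below, was 0.03 (SE 0.66, 95% interval -1.35 to 1.40; limma, Benjamini-Hochberg adjusted p over 11744 genes = 0.998; two-sided exact permutation p = 0.968). The interval leaves room for a change of more than 2-fold either way, so equality was not shown. Without the 3 libraries apart the difference was 0.34.

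Dscaml1, the Dscam paralogue, had a lower level in most knockout libraries. In wild-type libraries 1 to 5 it stood at 27.5, 24.5, 15.8, 22.2 and 40.4 TPM. In knockout libraries 1 to 5 it stood at 8.95, 4.87, 8.17, 33.6 and 4.16 TPM. Thus 4 knockout libraries were below every wild-type library, and knockout 4 was above all wild-type libraries but 1. The means were 26.1 ± 9.06 TPM in the wild-type and 11.9 ± 12.3 TPM in the knockout (SD, n = 5 each), and the log2 difference was -1.39 (SE 0.72, 95% interval -2.89 to 0.11). A two-sided exact permutation test on the 10 libraries gave p = 0.0397, whereas limma gave an unadjusted p of 0.0672 and a Benjamini-Hochberg adjusted p of 0.992, so the difference did not pass across the transcriptome. Among the 7 libraries not apart on the first component, wild-type (15.8 to 27.5 TPM) and knockout (4.87 to 8.95 TPM) did not overlap. There the log2 difference was -1.51 and the exact permutation p was 0.0286, the smallest that 4 against 3 libraries allow. The limma adjusted p over these 7 libraries was 0.988. How many of all tested genes did not overlap in these 7 libraries was not counted, so how unusual this is was not shown. The highest Dscaml1 value of each genotype was in a library apart on the first component, wild-type 5 and knockout 4, while knockout 5, also apart, had the lowest of all.

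Sdk1 was lower in the knockout on average, with wide overlap. Its level was 49.2, 23.7, 38.2, 20.7 and 7.95 TPM in wild-type libraries 1 to 5. In knockout libraries 1 to 5 it was 34.3, 14.6, 9.24, 13.3 and 1.58 TPM. Wild-type 5 lay below 4 of the 5 knockout libraries, and knockout 1 lay above 3 of the 5 wild-type libraries. The means were 28.0 ± 16.0 and 14.6 ± 12.1 TPM (SD, n = 5 each), and differed on the log2 scale by -1.10 (SE 0.79, 95% interval -2.75 to 0.55; limma adjusted p = 0.992; exact permutation p = 0.198), within the spread between replicates. Without knockout 5, the library with the lowest level, the difference was -0.56, and without the 3 libraries apart it was -0.85.

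Sdk2 had the opposite sign. It stood at 47.6, 21.5, 10.05, 25.1 and 7.64 TPM in wild-type libraries 1 to 5. In knockout libraries 1 to 5 it stood at 35.7, 29.4, 44.2, 17.4 and 90.5 TPM. Knockout 5 had the highest Sdk2 value and the lowest Sdk1 value of all 10 libraries. The means were 22.4 ± 15.9 and 43.4 ± 28.1 TPM (SD, n = 5 each), and differed on the log2 scale by 0.99 (SE 0.69, 95% interval -0.46 to 2.44). The difference was again within the spread between replicates (limma adjusted p = 0.992, exact permutation p = 0.135). Without knockout 5 it was 0.68, and without the 3 libraries apart it was 0.64.

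**Figure D1:**
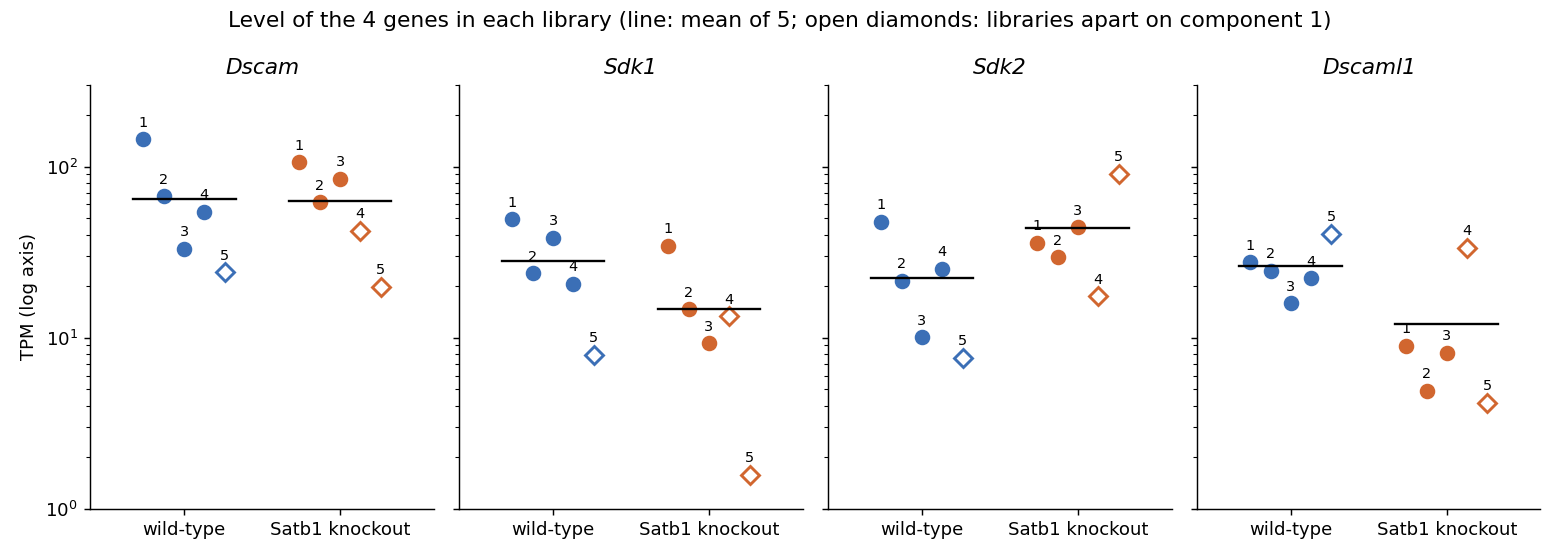
TPM of each gene on a log axis, wild-type in blue and Satb1 knockout in orange; each numbered point is 1 library, lines are means of 5, and open diamonds mark the 3 libraries apart on the first component. Dscam overlapped between genotypes, 4 of 5 knockout libraries had less Dscaml1 (4.16 to 8.95 TPM) than any wild-type library, and knockout 5 combined the lowest Sdk1 (1.58 TPM) with the highest Sdk2 (90.5 TPM).

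Across the transcriptome limma called 0 of 11744 genes at a Benjamini-Hochberg adjusted p under 0.05, or 0%, and 389 genes (3.31%) at an unadjusted p under 0.05. None of the 4 adhesion genes was in either group. Over all 10 libraries none of the 4 had genotypes that did not overlap, as 0.502% of all tested genes did. Of the 4, Dscaml1 and Sdk1 had lower and Sdk2 and Dscam higher mean log2 levels in knockout; of all tested genes 67.4% were lower. Scaling moved this background: the median difference of all genes was -0.31 as deposited, 0.07 after median centring and -0.04 after quantile normalization. After these scalings the differences were -1.01 and -1.04 for Dscaml1, -0.73 and -0.75 for Sdk1, 1.37 and 1.24 for Sdk2, and 0.40 and 0.30 for Dscam, so no sign changed. In bulk samples fewer cells of a type and less RNA per cell cannot be told apart.

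**Figure D2:**
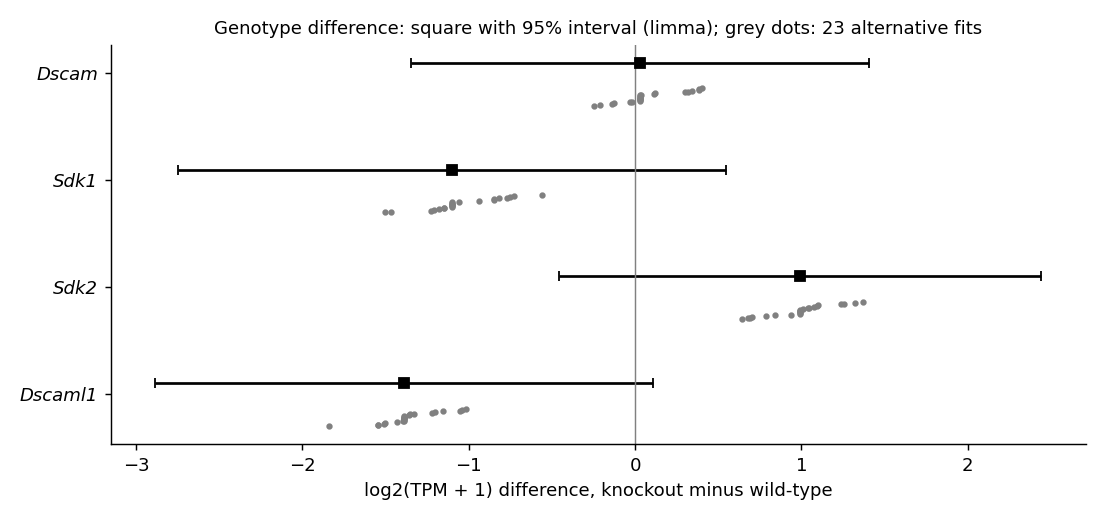
Difference in log2(TPM + 1), knockout minus wild-type; squares with bars give the limma estimate and its 95% interval from all 10 libraries, and grey dots the estimates from 23 alternative fits. All 4 intervals include 0; the dots for Dscaml1, Sdk1 and Sdk2 stay on one side of 0, and those for Dscam (-0.25 to 0.40) lie on both.

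The balance between the Sidekick genes was compared within each library, because a ratio of TPM within a library does not depend on the scaling between libraries. With 1 added to each TPM this holds only roughly for low values, such as Sdk1 in knockout 5 (1.58 TPM). In wild-type libraries 1 to 5 the ratio of Sdk1 to Sdk2, on TPM + 1, was 1.03, 1.10, 3.55, 0.829 and 1.04. In knockout libraries 1 to 5 it was 0.960, 0.514, 0.227, 0.776 and 0.0282. Sdk1 and Sdk2 were thus near parity in 4 of 5 wild-type libraries and in knockout 1 and 4, Sdk1 was in excess in wild-type 3, and Sdk2 was in excess in knockout 2, 3 and 5. The ratio was below 1 in all 5 knockout libraries and in wild-type 4, which lay below knockout 1. The mean log2 ratio was 0.36 ± 0.84 in wild-type and -1.73 ± 2.07 in the knockout (SD, n = 5 each). The difference was -2.09 (SE 0.997), a ratio 4.27-fold lower in knockout. With 0.1 or 5 added to each TPM in place of 1, it was -2.27 or -1.66. It passed a two-sided exact permutation test (p = 0.0159, and 0.0317 after Benjamini-Hochberg adjustment over the 2 ratios tested). In size the difference was close to the SD of 2.07 among knockout libraries, against 0.84 in wild-type, and the genotypes overlapped.

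Without knockout 5 the difference was smaller, at -1.24 (exact permutation p = 0.0238), and without wild-type 3 it was -1.73 and did not pass at 0.05 (exact permutation p = 0.0794). Without wild-type 1, 2 or 5 it was as large, at -2.17, -2.15 and -2.17, but did not pass (exact permutation p = 0.0635 for each). It passed without wild-type 4 (exact permutation p = 0.0476) and without knockout 1, 2, 3 or 4 (exact permutation p = 0.00794 to 0.0159). Whether the ratio passed thus depended on single wild-type libraries. Among the 7 libraries not apart on the first component it was -1.49 (exact permutation p = 0.0857), and the 3 others hold too few libraries for a test.

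The ratio of Dscam to Dscaml1 was 5.10, 2.67, 2.01, 2.38 and 0.606 in wild-type libraries 1 to 5. In knockout libraries 1 to 5 it was 10.8, 10.7, 9.33, 1.25 and 4.03. Knockout 1 to 3 had ratios above every wild-type library, whereas knockout 4 was lower than wild-type 1 to 4. The mean log2 ratios of 1.06 ± 1.12 and 2.48 ± 1.34 (SD, n = 5 each) differed by 1.42 (SE 0.78; exact permutation p = 0.119, and 0.119 after adjustment over the 2 ratios), which did not pass. Without knockout 4 the difference was 1.96 (exact permutation p = 0.0238). Among the 7 libraries not apart it was 1.85 (exact permutation p = 0.0571).

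**Figure D3:**
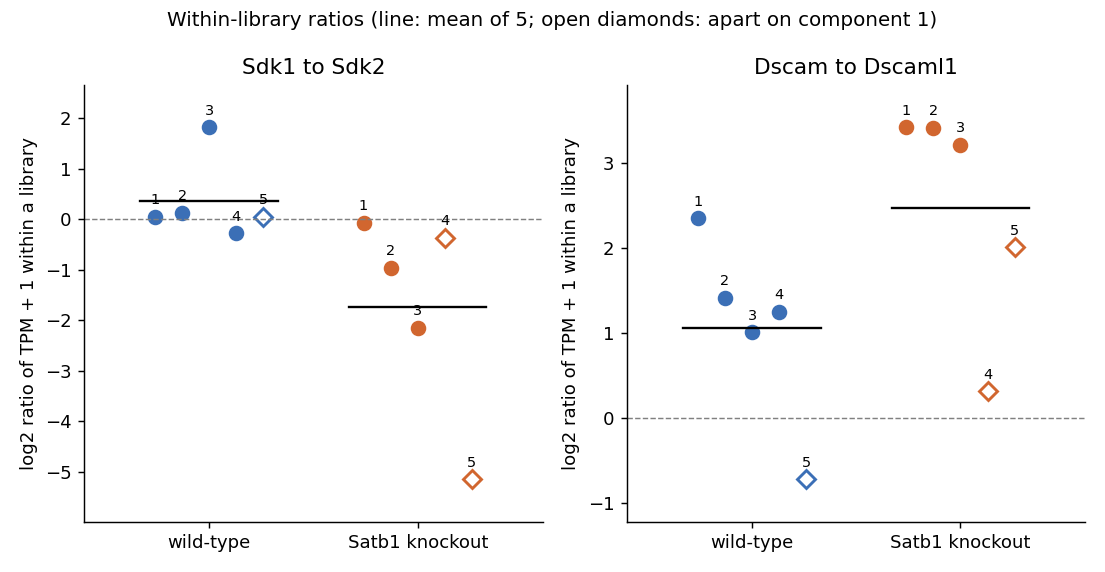
Within-library log2 ratio of Sdk1 to Sdk2 (left) and of Dscam to Dscaml1 (right); each numbered point is 1 library, lines are means of 5, the dashed line marks equal levels, and open diamonds the libraries apart on the first component. All 5 knockout libraries are below parity for Sdk1 to Sdk2, while knockout 4 departs from knockout 1 to 3 for Dscam to Dscaml1.

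Levels of different genes were compared within a library on the TPM scale, over all 10 libraries and 6 pairs. Dscam exceeded Sdk1 in 9 of 10 libraries (mean log2 difference 1.69 ± 0.92 SD, 3.22-fold; two-sided exact sign-flip permutation p = 0.00391, adjusted over the 6 pairs 0.0176). It exceeded Dscaml1 in 9 of 10 (1.77 ± 1.39, 3.41-fold; exact p = 0.00586, adjusted 0.0176). It exceeded Sdk2 in 9 of 10 (1.001 ± 1.13, 2.002-fold), where the exact p of 0.0273 became 0.0547 after adjustment. The exceptions were wild-type 3, where Sdk1 was highest, wild-type 5, where Dscaml1 was highest, and knockout 5, where Sdk2 was highest. The other 3 genes were not separated: the mean log2 differences were -0.69 ± 1.85 for Sdk1 against Sdk2, 0.08 ± 1.29 for Sdk1 against Dscaml1 and 0.77 ± 1.91 for Sdk2 against Dscaml1 (adjusted exact p = 0.33, 0.857 and 0.33). Without the 3 libraries apart, Dscam still exceeded Sdk1 by 1.54, at an adjusted exact p of 0.0625, and Sdk2 by 1.34, at 0.0469. Without knockout 5 alone, the only library with more Sdk2 than Dscam, the Dscam to Sdk2 difference was 1.35 (adjusted exact p = 0.0234). With any other single library left out this difference did not pass (adjusted exact p of 0.0762 to 0.102).

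The summed TPM of the 4 genes was 80.0 to 269 in wild-type and 106 to 185 in knockout libraries. Of that sum Dscam made up 42.2% ± 10.01 in wild-type and 45.5% ± 17.6 in the knockout (SD, n = 5 each). Sdk1 made up 20.4% ± 11.1 and 10.4% ± 6.64, Sdk2 14.8% ± 4.73 and 34.1% ± 25.2, and Dscaml1 22.6% ± 15.9 and 9.99% ± 12.1. Dscaml1 took its largest shares in wild-type 5 (50.4%) and knockout 4 (31.6%), and Sdk2 took 78.0% in knockout 5. Sdk1 took its largest share, 39.4%, in wild-type 3.

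**Figure D4:**
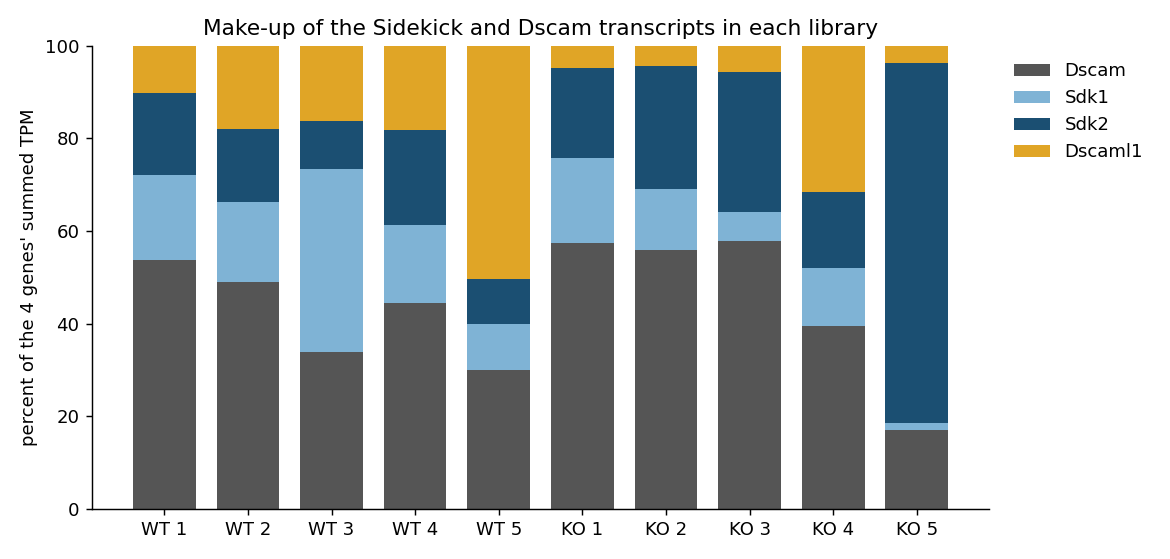
Share of each gene, in percent, in the summed TPM of Dscam, Sdk1, Sdk2 and Dscaml1, with 1 bar per library (WT, wild-type; KO, knockout). Dscam holds the largest part in 7 of the 10 bars; Dscaml1 is widest in WT 5 (50.4%) and Sdk2 in KO 5 (78.0%).

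The rank of each gene among the 11744 tested genes of its library gave a second measure, this one free of scaling. Dscam lay at the 64.2 to 89.9 percentile over the 10 libraries, with means of 76.6 ± 9.67 in wild-type and 80.7 ± 7.27 in the knockout (SD, n = 5 each). Sdk2 lay at 53.0 ± 12.4 in wild-type and 71.8 ± 12.3 in knockout, a difference of 18.9 percentile points (two-sided exact permutation p = 0.0556). For Sdk1 the means were 59.1 ± 9.53 and 46.3 ± 15.4 (difference -12.8, exact permutation p = 0.127). For Dscaml1 they were 59.1 ± 12.6 and 41.7 ± 19.3 (-17.4, exact permutation p = 0.135), and for Dscam the exact permutation p was 0.492. None of the 4 passed at 0.05 over the 10 libraries. Single libraries decided this for 3 of them: the exact permutation p was 0.0238 for Sdk2 without wild-type 1 (22.8 points) and 0.0476 without knockout 4 (21.9 points), 0.0397 for Sdk1 without knockout 1 (-17.7 points), and 0.0159 for Dscaml1 without knockout 4 (-25.3 points).

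Among 40 other immunoglobulin superfamily adhesion genes of the table, Dscam was exceeded by 16 in mean TPM over the 10 libraries, Sdk2 by 22, Sdk1 by 27 and Dscaml1 by 29. By genotype, Sdk2 was exceeded by 29 in wild-type and by 19 in knockout, Sdk1 by 28 and 29, Dscaml1 by 29 and 30, and Dscam by 17 and 15, so Sdk2 had the lowest mean of the 4 in wild-type and stood next to Dscam in knockout. L1cam, a neural adhesion molecule of axons, had the highest mean of that list at 1085 TPM, against 63.7 TPM for Dscam. In knockout, 30 of the 37 tested members had lower and 7 had higher levels, with a median log2 difference of -0.57, against -0.31 and 67.4% lower for all tested genes. After median centring 22 were lower and 15 higher, with a median of -0.20, where the median of all tested genes was 0.07 and 46.1% were lower. None passed a limma adjusted p under 0.05, and at an unadjusted p under 0.05 there was 1, Cntn5, lower in knockout (2.57% of all tested genes were lower at that level). Cntn5, which encodes contactin 5, went from 49.7 ± 52.9 to 2.23 ± 1.04 TPM (SD, n = 5 each; log2 difference -3.38, SE 0.81); the study is known to have followed this gene up from these libraries, which makes its difference no independent evidence. The next smallest p values belonged to Lsamp (-1.47, SE 0.93) and Jam2 (-0.95, SE 0.74), which encode a GPI-anchored adhesion protein and a junctional adhesion molecule.

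Proteins that bind the Sidekick or Dscam tails, or act with Dscam in netrin signalling, were measured as a list of 16 genes, 15 of them tested. The netrin gene Ntn1 did not pass the filter, at 0 to 3.93 TPM. Of the 15, 13 were lower and 2 higher in knockout (median log2 difference -0.54), against 67.4% lower of all tested genes. After median centring 12 were lower and 3 higher (median -0.16), against 46.1% lower of all. None passed at a limma adjusted p under 0.05. The scaffold genes Magi1, Magi2 and Magi3, whose proteins carry PDZ domains and anchor Sidekicks at synapses, were present in every library. Magi1 was at 18.4 to 151 TPM in wild-type libraries and 7.42 to 257 TPM in those of the knockout (-0.45, SE 0.82). Magi2 (-0.70, SE 0.75) and Magi3 (-0.39, SE 0.91) also overlapped between genotypes. Nck2, an adaptor that links receptors to the actin machinery, had the smallest p of the list: it was at 15.0, 16.8, 36.8, 38.6 and 13.5 TPM in wild-type libraries 1 to 5 and at 1.66, 17.7, 5.77, 9.16 and 1.24 TPM in knockout libraries 1 to 5 (log2 difference -1.93, SE 0.78; limma adjusted p = 0.992). Knockout 2 was the only knockout library within the wild-type range. The focal adhesion kinase gene Ptk2 (-1.27, SE 0.78) and the PDZ protein gene Pick1 (-1.19, SE 0.75) followed. The most abundant were the postsynaptic scaffold genes Dlg2 (421 ± 254 TPM in wild-type, 654 ± 669 in knockout) and Dlg4 (176 ± 115 and 98.8 ± 43.0) and the kinase gene Pak1 (217 ± 161 and 126 ± 43.5; SD, n = 5 each).

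Of 23 tested genes of other systems for targeting and spacing in the inner plexiform layer, 20 were lower and 3 higher in knockout, with a median log2 difference of -0.58. After median centring 16 were lower and 7 higher, with a median of -0.20. The shares for all tested genes were 67.4% lower and, after centring, 46.1%. At an unadjusted limma p under 0.05 there were 2, both lower: Mmp17, which encodes a matrix metalloproteinase (-2.24, SE 0.80), and Col25a1, which encodes a transmembrane collagen (-2.49, SE 0.91), each with an adjusted p of 0.992. Of all tested genes 2.57% were lower at that level, and both genes are also among the markers of ON-OFF direction-selective cells, chosen with their levels known. The semaphorin receptor gene Plxna1 followed at 139 ± 52.2 TPM in wild-type libraries and 73.8 ± 38.9 TPM in those of the knockout (-0.93, SE 0.57). The atypical cadherin gene Fat3 (169 ± 88.5 and 147 ± 113 TPM) and the cadherin gene Cdh6 (159 ± 97.5 and 101 ± 53.8 TPM; SD, n = 5 each) were among the most abundant. Both stood above Dscam in mean level.

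Markers of cells known to carry the 4 genes are given beside them. Slc17a8, the vesicular transporter of the glutamatergic amacrine cell that carries Sdk2, was at 11.9, 9.60, 44.5, 0.728 and 0.987 TPM in wild-type libraries 1 to 5 and at 15.6, 3.29, 1.98, 3.92 and 1.97 TPM in knockout libraries 1 to 5. Knockout 5, at 1.97 TPM, was the library with the most Sdk2. For amacrine cells that need Dscam for spacing, Th and Nos1 were listed at 0 in at least 5 libraries and together reached at most 6.48 TPM. For AII amacrine cells, which need Dscaml1, the 3 markers summed to 28.9 to 229 TPM in wild-type libraries and 32.3 to 111 TPM in those of the knockout. The largest part of that sum was Gjd2, at 18.2 to 216 TPM. Prox1 reached 2.47 TPM at most in wild-type libraries and 10.9 TPM in those of the knockout, and was listed at 0 in 2 libraries. The sum was lowest in wild-type 4 and was 32.995 TPM in wild-type 5, the library with the most Dscaml1. The part of these amacrine cells in the levels of the 4 genes was not tested.

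Rod markers, 11 genes of which Gnat1 and Pde6a were listed at 0 in at least 5 libraries, summed to 4.02 to 467 TPM in wild-type libraries and 1.21 to 472 TPM in those of the knockout. Microglia markers (8 genes) summed to 2.73 to 2198 TPM in wild-type libraries and 70.4 to 2743 TPM in those of the knockout, and the highest sum was in knockout 5. The 8 markers of ON-OFF direction-selective cells summed to 722 to 1589 TPM in wild-type libraries and 144 to 481 TPM in those of the knockout, without overlap, and the lowest sum was in knockout 5. That sum includes Satb1 itself, and the lack of overlap rested on the neuropeptide gene Cartpt: without Cartpt the sums were 221 to 774 TPM and 96.3 to 479.7 TPM. This list was chosen with its levels in these libraries known, so it is no independent evidence. The part of these cells in the Sidekick and Dscam differences was not tested.

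Covariation between the genes was examined over the 7 libraries not apart on the first component, since the 3 others form a separate cluster. Of the 6 pairs, Dscam and Sdk2 varied together (Pearson r = 0.906, exact permutation p = 0.00556, adjusted over the 6 pairs 0.0333; Spearman rho = 0.857, exact permutation p = 0.0238, adjusted 0.143; n = 7). Without the 2 libraries farthest from the median of Dscam r was 0.683, so the relation rested partly on those libraries. In the 3 libraries left out, Dscam and Sdk2 were at 24.1 and 7.64 TPM in wild-type 5 and at 42.0 and 17.4 TPM in knockout 4. Knockout 5 went against the relation, with the lowest Dscam (19.8 TPM) and the highest Sdk2 (90.5 TPM) of all 10 libraries. The relation is thus shown for the 7 libraries only. For the other 5 pairs r ran from -0.235 to 0.583 (adjusted exact permutation p of 0.524 to 0.9). The highest of these was Sdk1 with Dscaml1 (rho = 0.679), which fell to r = 0.318 without the 2 farthest libraries. Sdk1 with Sdk2 had r = -0.235 and rho = -0.0357.

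The genes whose levels were most like each of the 4 were taken by Pearson r of log2(TPM + 1) over the 10 libraries, among 9563 tested genes above 0 in every library. The libraries share the spread along the first component, so r over the 7 libraries not apart is given after each. Nearest to Sdk1 were Stox2 (r = 0.978, then 0.993), the scaffold gene Tanc2 (0.970, 0.908), the immunoglobulin adhesion gene Negr1 (0.969, 0.976) and the potassium channel gene Kcnn2 (0.967, 0.941). Negr1 followed Sdk1 from 299 TPM in wild-type 1 to 20.1 TPM in knockout 5, the same extremes as Sdk1. Nearest to Dscam were Ylpm1 (0.968, 0.947), the deubiquitinase gene Usp1 (0.966, 0.920), the chromatin remodeller gene Chd1 (0.951, 0.955) and Zmym5 (0.947, 0.925). Nearest to Sdk2 were Fam161b (0.926, 0.857), Cnst (0.907, 0.860), Pan3 (0.891, 0.687) and Donson (0.879, 0.779). Nearest to Dscaml1 were the ryanodine receptor gene Ryr1 (0.924, 0.869), the kinase gene Akt1 (0.892, 0.825), Pitpnm1 (0.891, 0.824) and Gart (0.867, 0.869). No gene was among the nearest of more than 1 of the 4.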

How the data were processed

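RNA was sequenced single-end in 5 wild-type and 5 Satb1 knockout libraries. The authors deposited log10(TPM + 1) values for 23746 lines, 1 column per library; base and offset were read from the values, which back-transform to 1000000 TPM per library. The submitters' processing notes name TopHat2 2.0.10, Cufflinks and mm10; not given in the sources used here: counting, annotation and strand. TPM keeps no depth, so depth is unknown and no counting interval was computed. The 26 lines named by a number (0.0438% to 0.198% of TPM) were left out, and 240 symbols on several lines were summed.

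Values were set on log2(TPM + 1), which understates changes of low genes. The 11744 genes reaching 1 TPM in 5 or more libraries entered limma 3.58.1 (R 4.3.3) with a genotype term, its trend option and p-values adjusted by Benjamini-Hochberg, threshold 0.05. Single values were tested by exact permutation over all divisions of the libraries (smallest p 0.00794) or by sign flips over 10 libraries (smallest p 0.00195) in Python 3.11.15, two-sided. Scripts were tested on simulated data. Alternatives covered the pseudocount, filter, scaling, replicate block, weights, variance model, repeated symbols and omitted libraries. The 4 genes and the lists were chosen with earlier results of these data known. Named list genes are the 3 with the smallest p, and the 3 most abundant of the tail-binding and laminar lists; likeness took the 4 highest r. Some genes that this rule names are not described singly.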

Additional observations from a re-analysis of the deposited data

Results flagged for a closer look

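Of 20 sets of 5 values examined, for the levels, ratios and percentiles of the 4 genes in each genotype, 1 held a value far from the rest. The log2 ratio of Sdk1 to Sdk2 was 1.83 in wild-type 3, with a gap to the next wild-type library that took 0.806 of the range, above the critical value of 0.71. Chance alone marks about 1 set in 20.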

How the results depend on the processing

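The side of the threshold was kept by all 4 genotype differences in all 23 alternative fits (limma adjusted p of 0.651 or more), and their sign by all but Dscam, which was -0.0297 with library weights and -0.25 to 0.39 with single libraries left out. Over all genes, limma called 1 gene with a filter of 5 TPM, without the mean-variance trend and with robust empirical Bayes, 3 with library weights, and 0 to 1 with a library left out. With the replicate block it called 0 genes, with 830 at an unadjusted p under 0.05 in place of 389. Same-numbered libraries had correlated deviations of -0.032 to 0.364, over 0.1 in 3 of 5 pairs, and 2 of the 5 wild-type libraries correlated best with the knockout of their own number, so the numbers were not taken as pairs; with a replicate block the Sdk1 to Sdk2 ratio differed by -2.09 (exact sign-flip permutation p = 0.0625, the smallest that 5 pairs allow). 

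Without the 3 libraries apart, that ratio differed by -1.49 and the Dscaml1 percentile by -22.3 points (exact permutation p = 0.0286), while Dscam exceeded Sdk1 by 1.54 and Sdk2 by 1.34. With single libraries left out, the ratio differences ran from -2.51 to -1.24 for Sdk1 to Sdk2 and from 0.97 to 1.96 for Dscam to Dscaml1. Percentile differences ran from -25.3 to -12.1 points for Dscaml1, from -17.7 to -7.31 for Sdk1 and from 14.4 to 22.8 for Sdk2. Level differences ran from 0.93 to 1.35 for Dscam over Sdk2 and from -0.11 to 0.34 for Sdk1 over Dscaml1. Without the 2 farthest libraries r was 0.683 for Dscam with Sdk2 and -0.367 for Dscam with Dscaml1. For these shifts the cause was not tested. Between genotypes the 7 libraries not apart allow no exact permutation p under 0.0286, against 0.00794 for all 10. With 1 library left out, 0.00794 was still reached, by the Sdk1 to Sdk2 ratio without knockout 1. For level differences within a library, fewer libraries raise the smallest possible sign-flip p. The SE of 0.66 to 0.79 for the 4 genotype differences limits what 10 libraries of unknown depth can show.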
